A study of Mus musculus with 8 samples.

Results

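The genes described here move iron into and out of developing red cells, store it, and report the marrow's demand for it to the rest of the body. They were chosen by symbol: Tfrc, Tfr2, Steap3, Slc11a2, Slc25a37, Fth1, Ftl1, Slc40a1, Hmox1 and Fam132b, 10 of the 23337 genes in the count table. The 10 members passed the filter on low counts in each fit. RNA was sequenced from bone marrow of C57BL/6 mice aged 4 months. Each mouse carried JAK2V617F on 1 allele, the activating change of the kinase JAK2 found in polycythemia vera, so no group lacks it. The groups are TER119-positive erythroblasts (maturing red cells that still hold a nucleus) from mice labelled JAK2V617F/+ Plek2+/+ or JAK2V617F/+ Plek2-/-, and c-Kit+ cells of the lineage-negative marrow with the same genotype labels, called progenitors below. In the values below these groups are written ERY-VF (erythroblasts, Plek2+/+), ERY-DKO (erythroblasts, Plek2-/-), HSPC-VF (progenitors, Plek2+/+) and HSPC-DKO (progenitors, Plek2-/-), with 2 libraries each. Plek2 encodes pleckstrin-2, a phosphoinositide-binding protein of erythroblasts.

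Erythroblasts take up iron by binding iron-loaded transferrin at the cell surface and carrying it into acid endosomes. There the iron is released, reduced, and passed across the endosomal membrane, and most of it goes on into mitochondria, where it is built into heme. Spare iron is held in ferritin shells or leaves through ferroportin, and erythroblasts under erythropoietin secrete erythroferrone, which lowers the liver hormone hepcidin and so frees more iron for the marrow. Many of these transcripts are also controlled after transcription: iron regulatory proteins bind a short hairpin, the iron-responsive element, when iron is scarce, which blocks translation from a 5′ UTR and protects the RNA when the hairpins lie in a 3′ UTR. RNA levels therefore do not give the level of the ferritin, ferroportin or transferrin receptor proteins, and the values below are RNA.

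The hairpins are shown because iron regulatory proteins act through them after transcription. Annotated UTRs of all coding genes were searched for the letters CAGTGN, with N not G, preceded by a C and flanked by 5 bases on each side that can pair. Of 21699 coding genes with a UTR, 119 (0.548%) held such a stretch, among them 4 of the 10 members, and Tfrc was the 1 gene with 4 or more. The search reads letters only, so members without a match are not shown to lack an element. In the lines below the capitals mark the loop, and each sequence is written 5′ to 3′ on the transcript's strand from GRCm38 with the GENCODE vM21 annotation.
Tfrc 3′ UTR, chr16:32631219-32631247, plus strand: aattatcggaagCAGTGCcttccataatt
Tfrc 3′ UTR, chr16:32631598-32631626, plus strand: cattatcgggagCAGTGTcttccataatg
Tfrc 3′ UTR, chr16:32631663-32631691, plus strand: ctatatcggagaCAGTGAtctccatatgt
Tfrc 3′ UTR, chr16:32631710-32631738, plus strand: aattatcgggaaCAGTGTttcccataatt
Fth1 5′ UTR, chr19:9982732-9982760, plus strand: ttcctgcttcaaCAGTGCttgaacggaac
Ftl1 5′ UTR, chr7:45459779-45459807, minus strand: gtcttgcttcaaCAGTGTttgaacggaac
Slc40a1 5′ UTR, chr1:45925465-45925493, minus strand: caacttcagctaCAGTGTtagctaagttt
The members with a stretch in the 3′ UTR and those with one in the 5′ UTR are thus a receptor that brings iron in on one side, and the stores and the exporter on the other.

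Library totals ran from 16038035 to 23521726 counts. Levels are counts-per-million on TMM-scaled totals (CPM), where TMM is edgeR's scaling for differences in RNA composition. The series' design text states duplicates without saying that they are separate mice, so p-values measure only the spread between these samples, which may be technical. Plek2 RNA stood at 108 and 129 CPM in ERY-VF and at 48.2 and 53.1 CPM in ERY-DKO, but at 1.36 and 0.708 CPM in HSPC-VF against 5.06 and 5.67 CPM in HSPC-DKO. The progenitor order goes against the label, and which part of the gene was removed is not given in the sources used here, so the genotype words below name labels. Xist ran from 2523 to 3044 CPM in the 4 Plek2+/+ libraries and from 2.13 to 3.6 CPM in the other 4, and Y-linked Ddx3y showed the opposite order, so sex and Plek2 label cannot be told apart in any genotype comparison. Between the populations, markers went in the direction of the cell type labels. Under both labels 13 of 13 erythroid markers were higher in erythroblasts and 11 of 11 early progenitor markers were higher in progenitors. These directions do not show that the populations are pure. Summed early progenitor markers stood at 3730 and 4047 CPM in HSPC-VF and 3017 and 3642 CPM in HSPC-DKO. Summed neutrophil markers stood there at 7189 and 4271 and at 18292 and 24650 CPM, and at 13242 to 21843 CPM in erythroblast libraries. In bulk samples a change in the number of cells of a type and a change in RNA per cell cannot be told apart.

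The comparison of the populations asks how the iron genes stand in erythroblasts against their less mature relatives. Within Plek2+/+ all 10 members were higher in erythroblasts, by 2.01-fold (Tfr2) to 48.9-fold (Slc25a37), and within Plek2-/- they were higher by 2.25-fold (Tfr2) to 50.8-fold (Slc25a37). No library of one population overlapped the other for any member, as for 89.1% of all genes tested in Plek2+/+ (42.6% higher and 46.5% lower in erythroblasts) and 87.9% in Plek2-/- (42.2% and 45.8%). The background is broad: 73.8% of 13365 tested genes were called in Plek2+/+, 36.0% higher and 37.8% lower in erythroblasts, and 76.7% were called in Plek2-/-, 37.5% higher and 39.2% lower. The median log2 fold change of the members was 2.35 in Plek2+/+ and 2.21 in Plek2-/-, where the medians over all genes tested were -0.06 and -0.07. Here and below, called means that edgeR's quasi-likelihood test gave an adjusted p below 0.05 (Benjamini-Hochberg over all genes tested). Scaling matters here: on plain library totals the median of all genes moved to -0.87 and -0.86 and the share of calls that were higher in erythroblasts fell from 48.8% to 18.7% in Plek2+/+ and from 48.9% to 20.5% in Plek2-/-. On that scale 10 of 10 members stayed higher under both labels and 9 were called in Plek2+/+, where Steap3 had a log2 fold change of 0.21 (adjusted p = 0.0736).

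**Figure D1:**
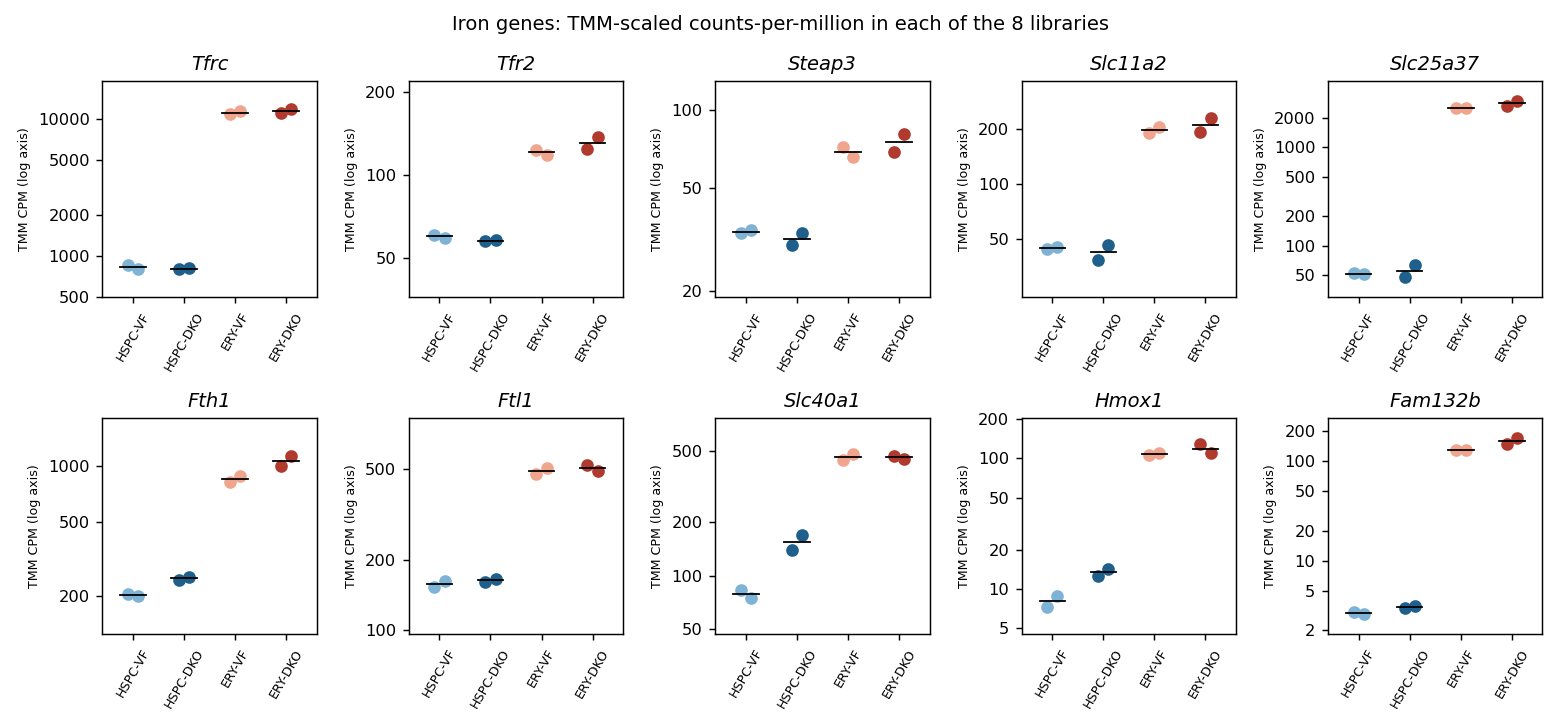
Level of each of the 10 iron genes in every library (TMM-scaled CPM, log axis), with 1 point per library and a line at each group's mean. Erythroblast points lie above progenitor points in each panel, and among progenitors the 2 libraries labelled Plek2-/- lie above the 2 labelled Plek2+/+ for Slc40a1, Hmox1, Fth1 and, at about 3 CPM, Fam132b.

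Uptake starts at Tfrc, transferrin receptor 1, on chromosome 16 from 32608920 to 32632794 (GRCm38, plus strand). Its level was 10766 and 11318 CPM in ERY-VF, 10916 and 11758 CPM in ERY-DKO, 864 and 796 CPM in HSPC-VF, and 798 and 821 CPM in HSPC-DKO. Tfrc alone took 0.831% to 0.892% of all counts in erythroblast libraries and 0.106% to 0.115% in progenitor libraries. All erythroblast libraries were thus far above all progenitor libraries, and within a population the labels overlapped. The log2 fold change between populations was 3.73 in Plek2+/+ (SE 0.13, 13.3-fold, edgeR adjusted p = 2.4e-11) and 3.81 in Plek2-/- (SE 0.13, 14.0-fold).

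Tfr2, transferrin receptor 2, senses iron-loaded transferrin and associates with the erythropoietin receptor. Its level was 123 and 118 CPM in ERY-VF, 125 and 137 CPM in ERY-DKO, 61.0 and 59.4 CPM in HSPC-VF, and 57.8 and 58.3 CPM in HSPC-DKO. Its fold between populations was the smallest of the 10 members, though too close to that of Steap3 (log2 1.02 in Plek2+/+) for an order. Tfr2 had a log2 fold change of 1.01 in Plek2+/+ (SE 0.08, edgeR adjusted p = 8.88e-08). The receptors therefore moved by unequal amounts. The ratio of Tfrc to Tfr2 counts, which needs no scaling between libraries, was 85.9 to 95.6 in the 4 erythroblast libraries and 13.4 to 14.2 in the 4 progenitor libraries. The mean log2 difference was 2.68, or 6.42-fold, with no overlap (two-sided exact permutation test over 4 against 4 libraries, p = 0.0286, the smallest it can give).

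After uptake, Steap3 reduces ferric iron in the endosome. It stood between 66.0 and 80.7 CPM in erythroblasts and between 30.1 and 34.3 CPM in progenitors, and was 2.03-fold higher in Plek2+/+ erythroblasts (log2 1.02, SE 0.10, edgeR adjusted p = 7.88e-07). Slc11a2, the divalent metal transporter DMT1 that passes the reduced iron into the cytosol, stood between 190.0 and 231 CPM in erythroblasts and between 38.1 and 46.3 CPM in progenitors. It was 4.44-fold higher in Plek2+/+ erythroblasts (log2 2.15, SE 0.11, edgeR adjusted p = 1.35e-09). Both steps downstream of the receptor were thus higher, but by less than the receptor itself.

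Slc25a37 (chr14:69241848-69285112, minus strand) is mitoferrin-1, the carrier that brings iron into mitochondria of erythroid cells. It stood at 2526 and 2550 CPM in ERY-VF, 2660.0 and 2972 CPM in ERY-DKO, 53.0 and 50.9 CPM in HSPC-VF, and 47.4 and 63.2 CPM in HSPC-DKO. It had the largest fold of the 10 members between populations, with that of Fam132b (log2 5.44 in Plek2+/+) close to it. Slc25a37 had a log2 fold change of 5.61 in Plek2+/+ (SE 0.15, edgeR adjusted p = 2.19e-12), rank 136 of 13365 genes from the most erythroblast-high. The progenitor libraries ran from 47.4 to 63.2 CPM, so the whole difference lies far outside their spread. Slc25a37 overlaps Gm20236, and Ftl1 overlaps Gm22133, on the same strand, and each also overlaps annotation on the opposite strand. Slc11a2 overlaps Gm5475 on the opposite strand. How reads shared with these genes were counted is not given.

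Ferritin is built from a heavy chain, Fth1, which oxidizes iron for storage, and a light chain, Ftl1, which aids the iron core. Fth1 (chr19:9980598-9985098, plus strand) stood at 824 and 881 CPM in ERY-VF, 1001 and 1140.5 CPM in ERY-DKO, 205 and 199 CPM in HSPC-VF, and 245 and 254 CPM in HSPC-DKO. Ftl1 stood between 476 and 520.0 CPM in erythroblasts and between 153 and 166 CPM in progenitors. Between populations in Plek2+/+, Fth1 was 4.22-fold higher (log2 2.08, SE 0.09, edgeR adjusted p = 3.03e-10) and Ftl1 3.11-fold higher (log2 1.64, SE 0.08, edgeR adjusted p = 8.59e-10) in erythroblasts. The annotation holds near-identical ferritin copies (Fth-ps2, Fth-ps3, Ftl1-ps1, Ftl1-ps2 and Ftl2-ps) that were not analysed here, and how shared reads were counted is not given, so both ferritin levels are uncertain by the reads that such copies could take.

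The ratio of heavy to light chain counts within each library was 1.73 and 1.75 in ERY-VF, 1.92 and 2.34 in ERY-DKO, 1.34 and 1.23 in HSPC-VF, and 1.52 and 1.53 in HSPC-DKO. The 4 erythroblast libraries were above the 4 progenitor libraries by 1.37-fold (log2 0.46, two-sided exact permutation test, p = 0.0286, the smallest it can give). Within each population both libraries labelled Plek2-/- lay above both Plek2+/+ libraries, a comparison of 2 against 2 whose exact p cannot go below 0.333.

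**Figure D2:**
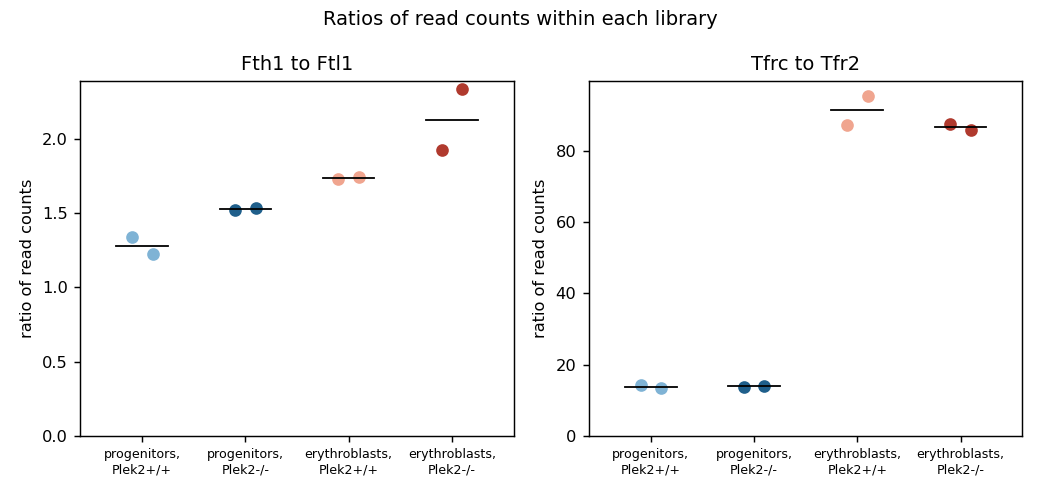
Ratio of Fth1 to Ftl1 counts and of Tfrc to Tfr2 counts in each library, with 1 point per library and a line at the group mean. Fth1 to Ftl1 runs from 1.23 to 1.53 in progenitors and from 1.73 to 2.34 in erythroblasts, and Tfrc to Tfr2 from 13.4 to 14.2 and from 85.9 to 95.6.

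Slc40a1 (chr1:45908068-45926523, minus strand) is ferroportin, the iron exporter that hepcidin removes from the cell surface. It stood at 445 and 484 CPM in ERY-VF, 473 and 454 CPM in ERY-DKO, 83.6 and 75.2 CPM in HSPC-VF, and 139.9 and 169 CPM in HSPC-DKO. The erythroblast groups overlapped and the progenitor groups did not. The difference between populations was 5.85-fold in Plek2+/+ (log2 2.55, SE 0.10, edgeR adjusted p = 1.3e-10) and 3.004-fold in Plek2-/- (log2 1.59, SE 0.10).

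Hmox1 (chr8:75093621-75100589, plus strand), heme oxygenase 1, frees iron by breaking heme down. It stood at 106 and 109 CPM in ERY-VF, 127 and 109 CPM in ERY-DKO, 7.23 and 8.87 CPM in HSPC-VF, and 12.7 and 14.1 CPM in HSPC-DKO. The erythroblast level was 13.3-fold the progenitor level in Plek2+/+ (log2 3.73, SE 0.12, edgeR adjusted p = 1.4e-11) and 8.79-fold in Plek2-/- (log2 3.14, SE 0.11). The macrophages of the erythroblastic island also express Slc40a1 and Hmox1, and their markers moved the same way between populations: 15 of 16 were called higher in erythroblasts under both labels, with a summed level of 1604 to 1866 CPM in erythroblast libraries and 330 to 375 CPM in progenitor libraries and none at 0 in any library. Neutrophil markers were also higher in Plek2+/+ erythroblasts than in progenitors (10 of 10 called, median log2 1.75), and lower in Plek2-/- erythroblasts (10 of 10 called, median -0.78). On library totals 7 were called higher in Plek2+/+, and in Plek2-/- 5 were called lower with the DESeq2 test and without the second HSPC-DKO library. The part of these cells in the population difference of Slc40a1 and Hmox1 was not tested.

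Fam132b encodes erythroferrone (Erfe in the annotation), on chromosome 1 from 91366430 to 91374217 (GRCm38, plus strand). It stood at 129 and 131 CPM in ERY-VF, 147 and 171 CPM in ERY-DKO, 3.05 and 2.93 CPM in HSPC-VF, and 3.39 and 3.54 CPM in HSPC-DKO. The progenitor values rest on 65 to 108 reads per library. It was 43.4-fold higher in erythroblasts in Plek2+/+ (log2 5.44, SE 0.12, edgeR adjusted p = 4.15e-13, rank 149 of 13365 genes) and 45.9-fold higher in Plek2-/- (log2 5.52, SE 0.11). Fam132b overlaps Ilkap on the opposite strand, and the strand setting of the counting is not given. Ilkap itself stood at 94.9 ± 1.56 and 102 ± 10.7 CPM in erythroblasts and 59.3 ± 1.42 and 55.9 ± 0.677 CPM in progenitors (SD, n = 2 each, Plek2+/+ first).

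**Figure D3:**
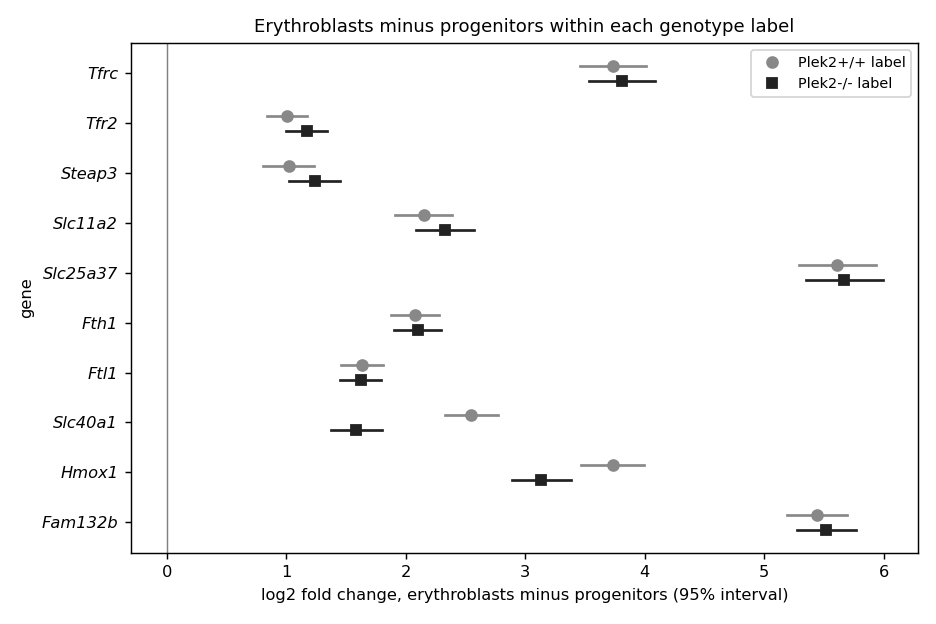
Log2 fold change of each member, erythroblasts minus progenitors, within Plek2+/+ (circles) and within Plek2-/- (squares), with 95% confidence intervals from the edgeR fit of 8 libraries. All intervals lie above 0. The largest gap between the labels is that of Slc40a1 (2.55 and 1.59). The next largest gap between the labels is that of Hmox1 (3.73 and 3.14).

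Levels between genes can be compared only per length, here as CPM per kilobase of the longest annotated coding transcript. In Plek2+/+ erythroblasts the order was Tfrc (2258), Slc25a37 (608), Fth1 (571), Ftl1 (507), Slc40a1 (138), Hmox1 (68.7), Fam132b (46.2), Slc11a2 (45.0), Tfr2 (39.4) and Steap3 (13.3 CPM per kilobase). In Plek2+/+ progenitors it was Tfrc (170), Ftl1 (163), Fth1 (135), Slc40a1 (23.6), Tfr2 (19.6), Slc25a37 (12.4), Slc11a2 (10.1), Steap3 (6.56), Hmox1 (5.13) and Fam132b (1.06 CPM per kilobase). Ranges over the libraries overlapped between Fam132b and Slc11a2 in ERY-VF and between Tfrc and Ftl1 in HSPC-VF, so these neighbours are not ordered. In ERY-DKO the order was Tfrc (2318), Fth1 (717), Slc25a37 (675), Ftl1 (521), Slc40a1 (138), Hmox1 (75.2), Fam132b (56.6), Slc11a2 (48.1), Tfr2 (42.6) and Steap3 (14.5 CPM per kilobase), with overlap between Fth1 and Slc25a37 and between Slc11a2 and Tfr2. In HSPC-DKO it was Ftl1 (169), Fth1 (167), Tfrc (165), Slc40a1 (45.8), Tfr2 (18.9), Slc25a37 (13.3), Slc11a2 (9.56), Hmox1 (8.53), Steap3 (6.15) and Fam132b (1.23 CPM per kilobase). There the first 3 overlapped, as did Slc11a2 and Hmox1. Tfrc exceeded every other member in erythroblasts under both labels, while in progenitors its range overlapped that of Ftl1. Fam132b was the lowest member in progenitors and above Tfr2 and Steap3 in erythroblasts.

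The genotype comparison in erythroblasts asks whether the Plek2 label goes with a different iron program under JAK2V617F. No member was called by edgeR, against 2.84% of 12241 genes (0.180% higher, 2.66% lower), with 2 members at an unadjusted p below 0.05. DESeq2 called 1 member and limma-voom 0. Values of the 10 members were above 0, though Slc40a1 was at -0.0023 in the fit of 8 libraries, with a median of 0.13 against 0.01 over all genes tested. The largest was Fth1, whose levels above do not overlap between the labels: its log2 fold change was 0.34 (SE 0.11, 95% confidence interval 0.11 to 0.57, 1.27-fold, edgeR adjusted p = 0.132, DESeq2 adjusted p = 0.0338). Fam132b followed with 0.30 (SE 0.10, 95% confidence interval 0.09 to 0.51, 1.23-fold, edgeR adjusted p = 0.136), also without overlap. Without the first erythroblast library labelled Plek2-/-, Fam132b was called (log2 0.40, edgeR adjusted p = 0.0152), and without the second its value was 0.18 (adjusted p = 0.561).

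Tfr2 and Slc25a37 also had both Plek2-/- erythroblast libraries above both Plek2+/+ libraries, with log2 fold changes of 0.12 (SE 0.09, edgeR adjusted p = 0.592) and 0.16 (SE 0.12, edgeR adjusted p = 0.58). These 4 of 10 members without overlap stand beside 45.5% of all genes tested, 21.5% higher and 23.9% lower. For the other 6 members the labels overlapped. Tfrc had a value of 0.05 (SE 0.14, 95% interval of the fold 0.839 to 1.27), Slc11a2 of 0.11 (SE 0.10), Steap3 of 0.13 (SE 0.11), Ftl1 of 0.05 (SE 0.09), and Hmox1 of 0.14 (SE 0.10). For Slc40a1 it was 0.01 (SE 0.09), with a 95% interval of the fold from 0.872 to 1.16.

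The same comparison in progenitors gave 3 of 10 members called, all higher in progenitors labelled Plek2-/-: Slc40a1, Hmox1 and Fth1. Of 13168 genes 4.91% were called, 4.50% higher and 0.402% lower, so that 91.8% of calls were higher, and 79.8% on plain library totals. The median over the members was 0.12, and over all genes tested -0.01. Those called are the exporter, the enzyme that frees iron from heme, and the storage heavy chain. The storage light chain Ftl1, the uptake genes, Slc25a37 and Fam132b were not called.

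Slc40a1 in progenitors labelled Plek2-/- was 2.003-fold the Plek2+/+ level (log2 1.002, SE 0.10, 95% confidence interval 0.77 to 1.23, edgeR adjusted p = 0.0019). It was called under each of the 11 alternatives run, with log2 values from 0.86 to 1.131. Hmox1 was 1.70-fold higher (log2 0.77, SE 0.14, 95% confidence interval 0.45 to 1.08, edgeR adjusted p = 0.0174), and Fth1 1.27-fold higher (log2 0.35, SE 0.06, 95% confidence interval 0.20 to 0.49, edgeR adjusted p = 0.0175). Both calls depend on single libraries. Hmox1 was lost without the first Plek2+/+ progenitor library (log2 0.64, adjusted p = 0.0995), and Fth1 without the first (0.37, adjusted p = 0.194), without the second (0.33, adjusted p = 0.392), and in the fit of all 8 libraries (0.31, adjusted p = 0.0881).

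Among the other members in progenitors, Fam132b differed by 0.26 on the log2 scale (edgeR adjusted p = 0.534, SE 0.18) at about 3 CPM, without overlap between the labels. Tfrc was at 0.00 (SE 0.08, 95% interval of the fold 0.887 to 1.134), Tfr2 at -0.01 (SE 0.07), Steap3 at -0.05 (SE 0.08), Slc11a2 at -0.04 (SE 0.10), Slc25a37 at 0.14 (SE 0.13) and Ftl1 at 0.09 (SE 0.06), none of them called. For Tfr2 and Steap3 both Plek2+/+ libraries lay above both Plek2-/- libraries on the CPM scale, by margins within the error of these fits. In progenitors 6 members thus had no overlap, 4 higher and 2 lower, beside 52.2% of all genes tested, 19.0% higher and 33.2% lower. Slc25a37 rests on the spread of its Plek2-/- libraries, 47.4 and 63.2 CPM, which lie on either side of the Plek2+/+ values: it was called without the first of them (log2 0.33, adjusted p = 0.000665) and stood at -0.09 without the second. The second library also held the highest summed level of erythroid markers among progenitors, given below with the other markers, and the part of erythroid RNA in this value was not tested.

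**Figure D4:**
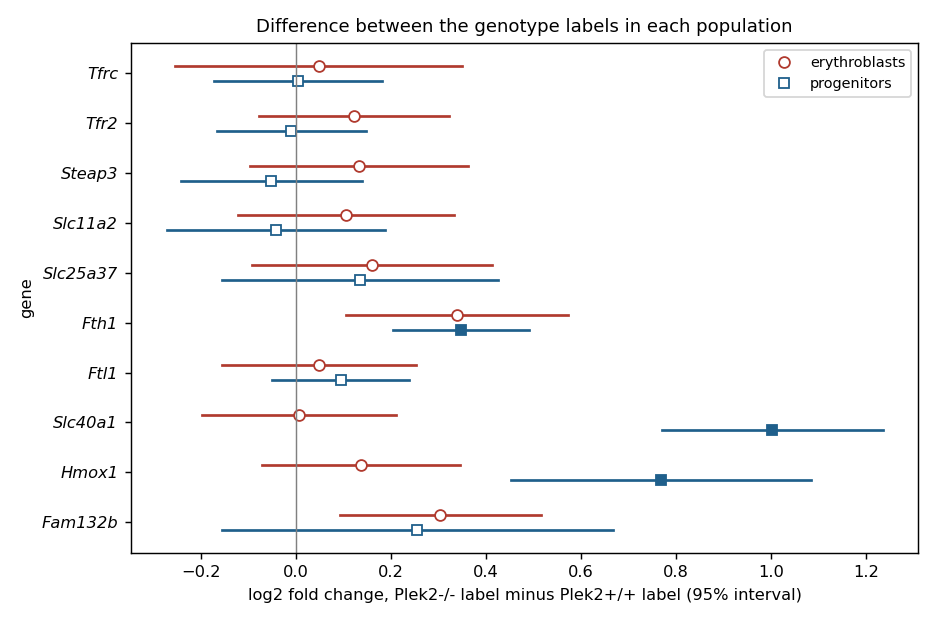
Log2 fold change of each member, label Plek2-/- minus Plek2+/+, in erythroblasts and in progenitors, with 95% confidence intervals from the edgeR fit of each population. In progenitors the intervals of Slc40a1 (0.77 to 1.23), Hmox1 (0.45 to 1.08) and Fth1 (0.20 to 0.49) lie above 0 and these genes were called. In erythroblasts the intervals of Fth1 and Fam132b also lie above 0, but no member was called.

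Whether the label's effect differed between the populations was tested as an interaction in the fit of 8 libraries, where 5.55% of 13365 genes were called, 0.232% higher and 5.32% lower. One member was called: for Slc40a1 the label's effect in erythroblasts minus that in progenitors was -0.96 on the log2 scale (SE 0.14, 95% confidence interval -1.26 to -0.66, edgeR adjusted p = 0.00105). It was called under each of the 14 alternatives run, from -1.09 to -0.82. For Hmox1 the value was -0.60 (SE 0.16, edgeR adjusted p = 0.0517), and DESeq2 called it (adjusted p = 0.0252). For Fth1 it was 0.02, where the label's values were 0.34 in erythroblasts and 0.35 in progenitors. This interaction uses the same libraries as the genotype and population comparisons, so these results are not independent of one another.

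Markers of other cells moved with the label in progenitors. The summed level of 10 neutrophil markers was 7189 and 4271 CPM in HSPC-VF and 18292 and 24650 CPM in HSPC-DKO, and 10 of 10 were called higher (median log2 1.91), also with any 1 library left out. In erythroblasts the same sum was 18929 and 21843 CPM in Plek2+/+ and 14635 and 13242 CPM in Plek2-/-, with 7 of 10 called lower (median -0.57, and 1 to 8 called when 1 library was left out), and 10 of 10 were lower in the interaction. No neutrophil marker was at 0 in any library. For macrophage markers edgeR called 0 of 14 tested in progenitors, with 8 at an unadjusted p below 0.05 and a median log2 of 0.47, DESeq2 called 1, lower, and limma-voom 0. Their summed level was 344 and 375 CPM in Plek2+/+ progenitors and 330 and 333 CPM in those labelled Plek2-/-. That sum is led by Csf1r, whose log2 value was -0.27 (edgeR adjusted p = 0.0592), and the complement genes went the other way: C1qa was at 2.30 and 2.63 CPM in Plek2+/+ progenitors and at 3.54 and 4.03 CPM in those labelled Plek2-/- (log2 0.65, adjusted p = 0.113). Without the first progenitor library labelled Plek2-/-, 6 macrophage markers were called higher and 2 lower. Erythroid markers had 1 of 13 called higher in progenitors labelled Plek2-/- (median 0.29), with a summed level of 377 and 380 CPM in Plek2+/+ and 383 and 495 CPM in Plek2-/-. Without the first progenitor library labelled Plek2-/-, 10 of 13 were called higher. The summed level of 9 B cell markers was 185 and 159 CPM in ERY-VF and 107 and 75.9 CPM in ERY-DKO, with 4 of 9 called lower (median -0.81, and 1 to 8 called when 1 library was left out). In progenitors edgeR called 0 of the 9, with 1 at an unadjusted p below 0.05 and a median of 0.17, DESeq2 called 1, higher, and limma-voom 0. In the interaction 3 of the 9 were lower (median -1.04, and 0 to 8 when 1 library was left out). For megakaryocyte markers edgeR called 1 of 9 in progenitors, higher with the Plek2-/- label (median 0.28), and DESeq2 called 0. In erythroblasts edgeR called 0 of these 9. For early progenitor markers edgeR called 0 of 11 in progenitors, with 3 values above 0 and 8 below (median -0.09). In erythroblasts 1 of these 11 was called lower (median -0.29). The part of these cells in the Slc40a1, Hmox1 and Fth1 values was not tested.

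**Figure D5:**
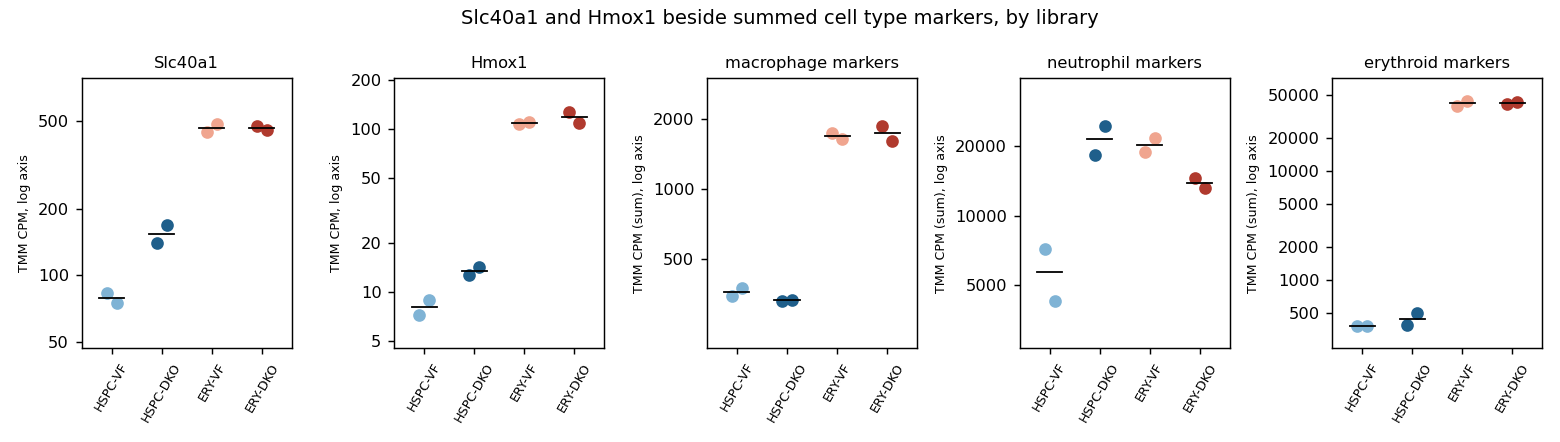
Slc40a1 and Hmox1 (CPM) beside the summed levels of macrophage, neutrophil and erythroid markers in each library, on log axes, with 1 point per library and a line at the group mean. In progenitors the neutrophil sum goes from 4271 and 7189 CPM in Plek2+/+ to 18292 and 24650 CPM in Plek2-/-. The macrophage sum, led by Csf1r, lies between 330 and 375 CPM there. Of the 14 macrophage markers tested in progenitors, 11 had log2 values above 0 and 3 below.

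Around the members, a wider list of 45 iron genes (iron-sulfur assembly, heme export and breakdown, transferrin cycle, regulators) had 37 genes tested. Between populations in Plek2+/+, 24 were higher and 8 lower in erythroblasts, with a median log2 of 0.93. The 4 higher with the lowest adjusted p included Blvrb, biliverdin reductase B (4.56), Slc25a38, a mitochondrial glycine carrier (3.46), Ncoa4, which delivers ferritin for breakdown (3.41), and Glrx5, a glutaredoxin of iron-sulfur assembly (3.38). Lower were among others Slc39a14, a metal importer (-1.47), and the iron chaperone gene Pcbp2 (-0.66). In Plek2-/- 24 were higher and 10 lower, with a median of 1.11. On library totals 15 were higher and 14 lower in Plek2+/+, with a median of 0.12, and 20 higher and 14 lower in Plek2-/-, with a median of 0.32.

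By label, edgeR called 0 of these 37 genes in erythroblasts, with 3 at an unadjusted p below 0.05, and DESeq2 and limma-voom called 0. Without the first erythroblast library labelled Plek2-/-, 3 were called lower (Steap4, Cd163 and Fbxl5). In progenitors 2 were called higher and 0 lower in those labelled Plek2-/-, beside 4.91% of all genes tested, with a list median of -0.00. When 1 library was left out, 2 to 4 were called higher and 0 to 3 lower. They were Fbxl5, the ubiquitin ligase subunit that marks iron regulatory protein 2 for breakdown, at 96.5 ± 5.28 CPM in HSPC-VF and 159 ± 6.74 CPM in HSPC-DKO (SD, n = 2 each, log2 0.77, edgeR adjusted p = 0.00173), and Steap4, a metalloreductase, at 8.54 ± 0.539 and 16.9 ± 1.64 CPM (SD, n = 2 each, log2 1.03, edgeR adjusted p = 0.00314). Both were also called in the interaction, at -0.97 for Fbxl5 (adjusted p = 0.0024) and -1.58 for Steap4 (adjusted p = 0.0471). Fbxl5 was called there under each alternative run, while Steap4 was lost on library totals, with the DESeq2 test, with the replicate number as a block, and without the second ERY-VF library or any 1 of the 4 progenitor libraries. Ireb2, which encodes iron regulatory protein 2, and Aco1, which encodes iron regulatory protein 1, were chosen for mention after their values were seen and were not called by label in either population. Ireb2 had log2 values of 0.24 in erythroblasts and 0.01 in progenitors, and Aco1 of 0.03 and -0.08. Hamp, the hepcidin gene, was not tested, with 1 to 12 reads per library.

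Erythroferrone is a known target of erythropoietin signalling through STAT5, and Hmox1, the ferritin genes and Slc40a1 are known targets of the NRF2 and BACH1 regulators. Of 14 other STAT5-linked genes, 7 were higher and 3 lower in Plek2+/+ erythroblasts than in Plek2+/+ progenitors (median log2 0.48), and 6 were higher and 7 lower in Plek2-/- (median -0.13), where 73.8% and 76.7% of all genes were called. On library totals these counts were 4 higher and 7 lower in Plek2+/+ (median -0.34) and 5 and 8 in Plek2-/- (median -0.91). By label, Il4ra was lower in erythroblasts labelled Plek2-/- (log2 -0.53, edgeR adjusted p = 0.0283, with no gene of the list called in 3 of the 4 fits that left out 1 erythroblast library), and Socs3 (1.04), Osm (0.78) and Bcl6 (0.90) were higher in progenitors labelled Plek2-/-, with 3 to 6 of the list called higher when 1 library was left out. Of 14 tested NRF2 and BACH1 genes, 10 were higher and 1 lower in Plek2+/+ erythroblasts, with a median log2 of 1.94, among them Blvrb, Cat (3.32) and Sqstm1 (2.63). In Plek2-/- 10 were higher and 3 lower (median 1.42), and on library totals 8 were higher and 5 lower in Plek2+/+ (median 1.12) and 7 and 7 in Plek2-/- (median 0.63). In erythroblasts edgeR called 0 of them by label, with 3 at an unadjusted p below 0.05, DESeq2 called 1, lower, and limma-voom 0. Without the first erythroblast library labelled Plek2-/-, Srxn1 was called higher and Gsr and G6pdx lower, and with the replicate number as a block G6pdx was called lower. In progenitors 3 were called higher with the Plek2-/- label: the cystine transporter Slc7a11 (log2 1.42, edgeR adjusted p = 0.00214), Gsr (0.41) and Txn1 (0.33), with a list median of 0.10, and 1 to 5 were called higher when 1 library was left out. The neutrophil markers described above moved in the same direction as Fbxl5, Steap4 and these genes in progenitors, and their part in those values was not tested.

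Genes whose profile over the 8 libraries was most like a member's were found by the root mean square difference of their log2(CPM + 1) values, each gene centred on its own mean, among 13364 genes. For Fam132b these were Hist3h2ba (0.111), Dhrs11 (0.119) and 2010011I20Rik (0.122), where the median over all genes was 2.59. For Slc40a1 they were Gda (0.0940), Clec4n (0.101) and Tg (0.109), with a median of 1.139, and for Hmox1 they were Rnf11 (0.147), Gpcpd1 (0.168) and Usp32 (0.176), with a median of 1.72. Clec4n had mean levels of 0.329 CPM in HSPC-VF and 1.35 CPM in HSPC-DKO, and Tg of 2.30 and 5.14 CPM. At such levels the added 1 shrinks log2 differences, so likeness on this scale is not likeness in fold. The 8 libraries share 2 populations and 2 labels, so they are not independent points.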

How the data were processed

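Per the submitters' processing notes, the tools were cutadapt 1.13, STAR 2.5.2a, HTSeq 0.6.1pl and DESeq2 1.14.1 on mm10. Neither the gene annotation used for counting nor its strand setting is stated. Input was the deposited count table (whole reads per gene, not normalized). The authors' second table, of normalized signal, was not used. Members, lists and tests were chosen with earlier results of these data known. Genotype effects were fitted in each population, and population and interaction effects over 8 libraries, with edgeR 4.0.16 in R 4.3.3 (TMM, filterByExpr defaults, quasi-likelihood test, Benjamini-Hochberg over all tested genes), tested on simulated data. DESeq2 1.42.0 and limma-voom (limma 3.58.1) were alternatives, beside other scaling, no filter, a replicate block and each library left out. Replicates differed by more than counting error (chi-square per degree of freedom 5.65 to 15.7). A count of 0 allows 3 counts, 0.128 to 0.187 CPM, which covers counting error only. All 10 members were named. Lists contributed at most 3 called genes by lowest adjusted p, or 4 in each direction for the wider iron list. Outside this rule, Csf1r and C1qa of the macrophage markers and Ireb2, Aco1 and Hamp of the wider iron list were named without being called. For likeness, 3 genes were named for each of Fam132b, Slc40a1 and Hmox1.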

Additional observations from a re-analysis of the deposited data

Results flagged for a closer look

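Slc40a1, the ferroportin gene, stood out because the effect of the Plek2 label differed between the populations by a test of the difference itself. The label's effect in erythroblasts minus that in progenitors was -0.96 on the log2 scale (edgeR interaction, adjusted p = 0.00105). In progenitors both libraries labelled Plek2-/- lay above both Plek2+/+ libraries, and in erythroblasts the labels overlapped. Neutrophil markers were higher with the Plek2-/- label in progenitors (10 of 10 called, median log2 1.91), and lower in erythroblasts (7 of 10 called, median -0.57), where Slc40a1 was at 0.01. In the interaction 10 of 10 neutrophil markers were lower (median -2.43), as were 3 of 9 B cell markers (median -1.04). Of 14 macrophage markers tested in progenitors edgeR called 0, with 11 values above 0 and a median of 0.47. In the interaction it called 0 of 16 macrophage markers, with 13 values below 0 and a median of -0.35. The part of these cells in the Slc40a1 value was not tested.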

How the results depend on the processing

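With 2 libraries per group, leaving out 1 library leaves a lone sample that is assumed to vary like the others. In erythroblasts the label's count of called genes (348) was 230 on library totals, 845 with no filter, 579 with the replicate number as a block, and 25 to 995 with 1 library left out. Its count of called members (0) was 1 (Fth1) with DESeq2, with no filter and with the block, and 0 to 1 with 1 library left out. In progenitors 646 called genes became 1315 with no filter and 239 to 2649 with 1 library left out, and 3 called members became 1 to 4. On library totals the share of progenitor calls that were higher went from 91.8% to 79.8%. For the interaction, 742 called genes became 1215 with no filter and 401 to 1175 with 1 library left out, and 1 called member became 2 (Hmox1 added) with DESeq2 size factors, with the DESeq2 test and with no filter, and 1 to 2 with 1 library left out. The causes were not tested. Whether same-numbered libraries share a mouse or a batch is not stated in the sources used here. Their deviations correlated at 0.07 and -0.10 between the labels, in erythroblasts and in progenitors. Between the populations they correlated at 0.05 in Plek2+/+ and 0.14 in Plek2-/-. With 2 libraries per group these values cannot decide it. Pairing by number left the log2 differences of the count ratios at 0.46 (Fth1 to Ftl1) and 2.68 (Tfrc to Tfr2), and the smallest exact permutation p that 4 pairs allow is above 0.05.

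Signs turned only for values that were not called. In erythroblasts Slc40a1 stood at -0.0023 in the fit of 8 libraries. With 1 library left out it ran from -0.050 to 0.048, Ftl1 from -0.0027 to 0.086, Tfrc from -0.016 to 0.094 and Slc11a2 from -0.037 to 0.22. In progenitors Tfrc stood at -0.055 on library totals and -0.037 in the fit of 8 libraries. With 1 library left out it ran from -0.054 to 0.068, Tfr2 from -0.030 to 0.012, Slc11a2 from -0.19 to 0.089, Steap3 from -0.12 to 0.015 and Slc25a37 from -0.087 to 0.33. For the interaction Ftl1 stood at 0.017 on library totals. With 1 library left out it ran from -0.12 to 0.033, Tfrc from -0.043 to 0.13, Slc25a37 from -0.13 to 0.28, Fth1 from -0.14 to 0.074, Slc11a2 from -0.019 to 0.33 and Fam132b from -0.10 to 0.14.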
